A study of Mus musculus with 6 samples.

Results

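The ileum of a humanized gnotobiotic mouse before weaning was compared with the ileum of germ-free mice before weaning, all of the C57BL/6J strain. A gnotobiotic animal is born and kept without microbes and then given a known community, and humanized means that the community came from people. The humanized group held 1 sample of mice aged 3 weeks, read on 3 arrays. The germ-free group held 2 samples kept in isolators: germ-free 1, read on 6 arrays in 2 column sets of 3, and germ-free 2, read on 3 arrays. These 3 samples are part of a series of 6, and the other groups are not described here. The age of the germ-free samples, the number of mice behind each RNA, and the make-up of the human community were not stated in the labels or series text. The series text names 3 weeks for gnotobiotic and for germ-free mice without saying which germ-free sample that covers.

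A gene was kept as a main finding when it was 2-fold or more higher, or 2-fold or more lower, in the humanized sample than in each of the germ-free samples. Levels are log2 of the quantile-normalized array intensity after an offset of 50, so a difference of 1 is a doubling and the folds of dim genes are understated. Of 12196 genes tested, 111 were higher by this rule (0.91%) and 22 were lower (0.18%), which is 133 genes in all (1.09%). The authors' series matrix values, which are not normalized between arrays, gave 251 higher and 7 lower, and under them the median of all genes was shifted by 0.30 against germ-free 2.

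Microbes in the gut are sensed by epithelial cells and resident macrophages through Toll-like and Nod-like receptors, which switch on the transcription factor NF-kB. NF-kB raises the transcription of chemokines, which call leukocytes out of the blood, and of adhesion molecules on vessel walls, to which leukocytes bind before they leave the vessel. The ileum also takes back bile acids: the transporter encoded by Slc10a2 carries them into the enterocyte, the protein encoded by Fabp6 binds them there, and the receptor FXR answers by raising Fgf15, a hormone that lowers bile acid synthesis in the liver. Hormone cells scattered through the epithelium release peptides such as PYY, which slows transit and reduces appetite.

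The samples did not stand equally close to each other. Across genes, which are not independent replicates, the humanized sample correlated with germ-free 2 at r = 0.983 and with germ-free 1 at r = 0.882. The germ-free samples correlated with each other at 0.878, and 2342 genes (19.2% of those tested) lay 2-fold or more apart between them. Array headings place the humanized sample and germ-free 2 in 1 array series and germ-free 1 in another, so a difference between array series and one between the germ-free samples cannot be told apart. The column sets of germ-free 1 correlated at 0.976, yet the Y-linked gene Ddx3y lay at 9.63 in set 1 and at 6.00 in set 2, beside 9.52 in the humanized sample and 9.84 in germ-free 2. Between arrays of 1 column set the SD had a median over genes of 0.07 in the humanized sample, 0.12 in germ-free 1 and 0.09 in germ-free 2. The value for germ-free 1 leaves out the gap between its column sets.

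The label ileum was checked against marker genes. Markers of the intestinal epithelium were bright in all 3 samples: Fabp2, the fatty acid binding protein of enterocytes, lay at 15.86 in the humanized sample and at 15.64 and 15.82 in germ-free 1 and 2. The markers of the distal ileum did not follow. Fabp6 lay at 6.75 in the humanized sample and was detected on none of its 3 arrays, and Slc10a2 was likewise undetected there, at 6.86. In germ-free 2 these genes lay at 11.34 and 8.85 and were detected on every array, while in germ-free 1 Fabp6 was detected on 4 of 6 arrays and Slc10a2 on none (0). Gata4, a transcription factor of the more proximal small intestine, was above background in all 3 samples, at 10.58, 9.90 and 10.50. Whether the samples came from the same stretch of the small intestine was not stated (the series text speaks of small intestinal RNA), and its part in the results was not tested.

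**Figure D1:**
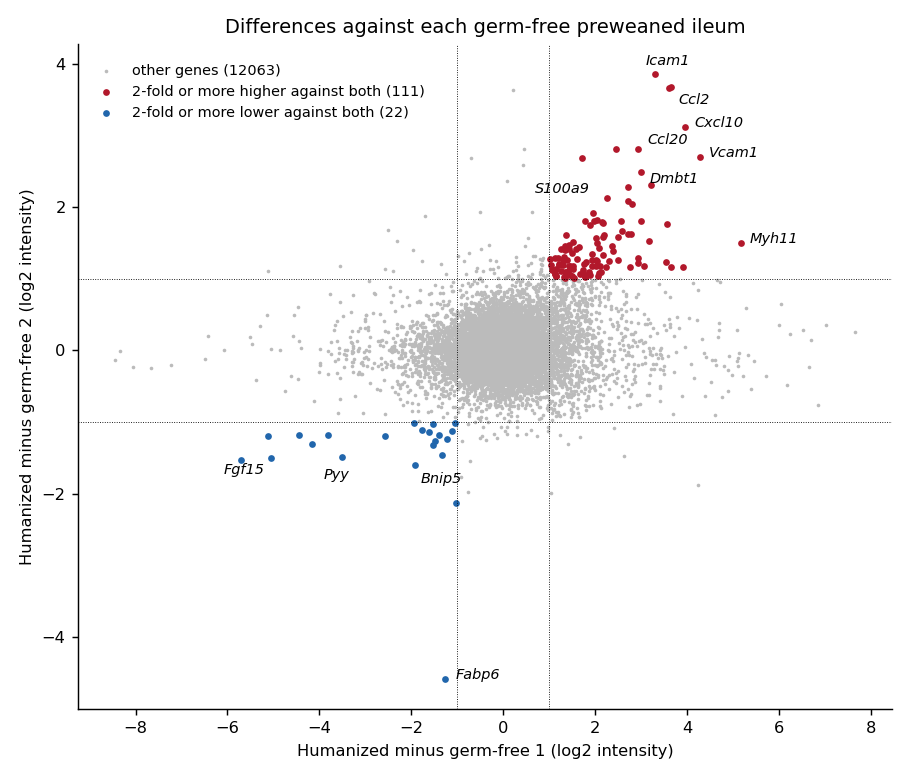
Difference of the humanized sample from germ-free 1 (horizontal axis) and from germ-free 2 (vertical axis) for 12196 genes, in log2 intensity, with dotted lines at 2-fold. The cloud is wider along the horizontal axis, and the genes 2-fold or more higher against both samples (111, red) outnumber those lower (22, blue).

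The humanized sample differed more from germ-free 1 than from germ-free 2. Against germ-free 1 alone 1240 genes (10.2%) were 2-fold or more higher and 995 (8.16%) lower, and against germ-free 2 alone 181 (1.48%) were higher and 51 (0.418%) lower. The plot of both differences shows this as a cloud that is wide along the axis of germ-free 1. The median of the 111 higher genes was 1.88 against germ-free 1 and 1.27 against germ-free 2, and that of the 22 lower genes was -1.70 and -1.22, whereas the median of all genes lay at -0.01 and -0.02. These medians follow from the rule and are a description. Of the 111 higher genes, 107 had all 3 humanized arrays above all 9 germ-free arrays, 103 were also 2-fold higher against each column set of germ-free 1, and 92 lay within 2-fold between the germ-free samples. Of the 22 lower genes, 19 had all humanized arrays below all germ-free arrays, 16 held against each column set, and 12 lay within 2-fold between the germ-free samples. These counts come from genes chosen on the same arrays, and how many of all genes show such separation was not counted. Over all genes, 19.2% lay 2-fold or more apart between the germ-free samples.

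Many higher genes were at the background of the arrays in the germ-free samples. Of the 111, 45 were undetected on all 9 germ-free arrays, and 41 were above background in all 3 samples. Detection also differed over all genes. Of 12196 tested, 9618 were above background in the humanized sample, 8831 in germ-free 1 and 7465 in germ-free 2. How many of all genes were undetected on all 9 germ-free arrays was not counted. Where a sample detected a gene on no array, its level is only a bound, and folds against it are given as "at least", taken against the lowest detected level of each array. With such bounds in place 65 higher and 18 lower genes stayed at 2-fold or more. Because the lowest detected level was higher in germ-free 2 (7.91 to 8.01) than in the humanized sample (6.99 to 7.59), the bounds were smaller against germ-free 2.

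A moderated test was fitted with limma to all genes, with the humanized sample set against the mean of the germ-free pair. It has 1 residual degree of freedom, from that pair, and the lone humanized sample is assumed to vary like it. After Benjamini-Hochberg adjustment no gene was called (0 of 12196, smallest adjusted p = 0.9999), and 70 genes (0.574%) had an unadjusted p under 0.05. Since the 133 genes were chosen on the values that limma tests, their own p-values are not given. Nothing states that the samples are separate animals or litters, so the p-values reflect how far this pair of samples lies apart, and that distance may be technical. All differences below are therefore given as values. In whole tissue, more RNA of a gene per cell and more cells that carry it cannot be told apart.

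Among the lists, that of leukocyte recruitment held the most genes 2-fold or more higher against both samples. Of 20 tested genes on it, 17 were higher against both germ-free samples and 2 were lower, beside 24.1% and 28.7% of all genes. At 2-fold or more higher against both stood 11, beside 0.91% of all genes. Of 27 genes with a probe these 20 passed the filter. Above background were 19 in the humanized sample, 6 in germ-free 1 and 7 in germ-free 2. A gene detected only in the humanized sample could hardly come out lower. The list was also chosen with earlier results known, so its counts are a description. The median of the list was 1.52 against germ-free 1 and 1.11 against germ-free 2. Among its adhesion molecules, Icam1, on which leukocytes brake and cross the vessel wall, lay at 10.43 ± 0.06 (SD, n = 3 arrays) in the humanized sample, at 7.27 and 7.01 in the column sets of germ-free 1, and at 6.58 ± 0.03 (SD, n = 3 arrays) in germ-free 2. The humanized arrays stood apart from every germ-free array, of which only 2 detected the gene at all. The fold was 9.80 against germ-free 1 and at least 5.55 against germ-free 2, where no array detected it.

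Vcam1, the vascular adhesion molecule bound by lymphocytes and monocytes, was measured above background in all 3 samples. It lay at 12.11 ± 0.02 (SD, n = 3 arrays) in the humanized sample, at 7.74 and 7.93 in the sets of germ-free 1 and at 9.42 ± 0.06 (SD, n = 3 arrays) in germ-free 2. The groups did not overlap, and the germ-free samples themselves differed by more than 1 unit. The folds were 19.4 and 6.48. Pecam1, an adhesion molecule of the junctions between endothelial cells, lay at 8.37 against 6.70, 7.03 and 7.33, and was undetected on every germ-free array. Its fold was at least 2.09 and at least 1.33. Madcam1, the address for lymphocytes that home to the gut, lay at 7.95 against 7.07, 7.22 and 7.27, 1.75-fold higher than germ-free 1, which detected it on 2 of 6 arrays, and with no fold at its bound against germ-free 2.

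The list also holds chemokines for monocytes and T cells. Ccl2, which draws monocytes, lay at 9.49 ± 0.15 (SD, n = 3 arrays) in the humanized sample, at 5.92 and 5.84 in the sets of germ-free 1 and at 5.82 ± 0.18 (SD, n = 3 arrays) in germ-free 2. All 9 germ-free arrays were at background, so the fold was at least 4.55 against germ-free 1 and at least 2.88 against germ-free 2. Cxcl10, a ligand of CXCR3 on activated T cells, lay at 10.32 against 6.21, 6.52 and 7.20, at least 8.10-fold and at least 5.14-fold higher. Cxcl9, another CXCR3 ligand, lay at 9.08 against 6.94, 7.04 and 7.91, at least 3.43-fold higher than germ-free 1 and 2.25-fold higher than germ-free 2, where 1 of 3 arrays detected it. These 3 genes were bright on all 3 humanized arrays and dim on almost all germ-free arrays.

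Ccl20, made by the epithelium over lymphoid follicles and a ligand of CCR6, lay at 10.11 ± 0.17 (SD, n = 3 arrays) in the humanized sample, at 7.36 and 6.99 in the sets of germ-free 1 and at 7.29 ± 0.04 (SD, n = 3 arrays) in germ-free 2. The fold was 7.62 against germ-free 1, where 3 of 6 arrays detected it, and at least 4.43 against germ-free 2. Ccl11, the eosinophil chemokine eotaxin, lay at 9.14 against 7.02, 7.29 and 7.33. The neutrophil chemokines Cxcl2 and Cxcl5 lay at 7.22 and 7.22, were detected on 2 of the 3 humanized arrays and on no germ-free array, and their bounds allow no fold. Ccl4 and Ccl3, chemokines made by activated macrophages, were undetected on all germ-free arrays. Ccl4 was at least 1.87-fold and at least 1.19-fold higher, and Ccl3 at least 1.25-fold higher than germ-free 1, with no fold at its bound against germ-free 2. Ccl5, a chemokine of T cells, was at least 3.33-fold higher than germ-free 1 and 1.49-fold higher than germ-free 2.

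Not every chemokine followed. Ccl25, which the small intestine makes constitutively to draw T cells, lay at 14.40 against 12.57, 13.20 and 14.16, 0.24 above germ-free 2. Cx3cl1, a membrane-bound chemokine of the epithelium, was at 12.51 against 12.72, 12.85 and 12.58, and Ccl28 was undetected in all 3 samples. Outside the list, and named after their values were seen, the 111 genes also held Xcl1, a chemokine of cytotoxic lymphocytes and natural killer cells that draws dendritic cells (at least 5.47-fold and 3.09-fold higher), Ccrl2, an atypical chemoattractant receptor (3.11-fold and 2.73-fold), and Csf1, the growth factor of macrophages (4.08-fold and 2.82-fold, detected on 3 of 6 and 1 of 3 germ-free arrays). The direction counts of the list were 17 higher and 2 lower under each quantile and percentile scaling tried.

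**Figure D2:**
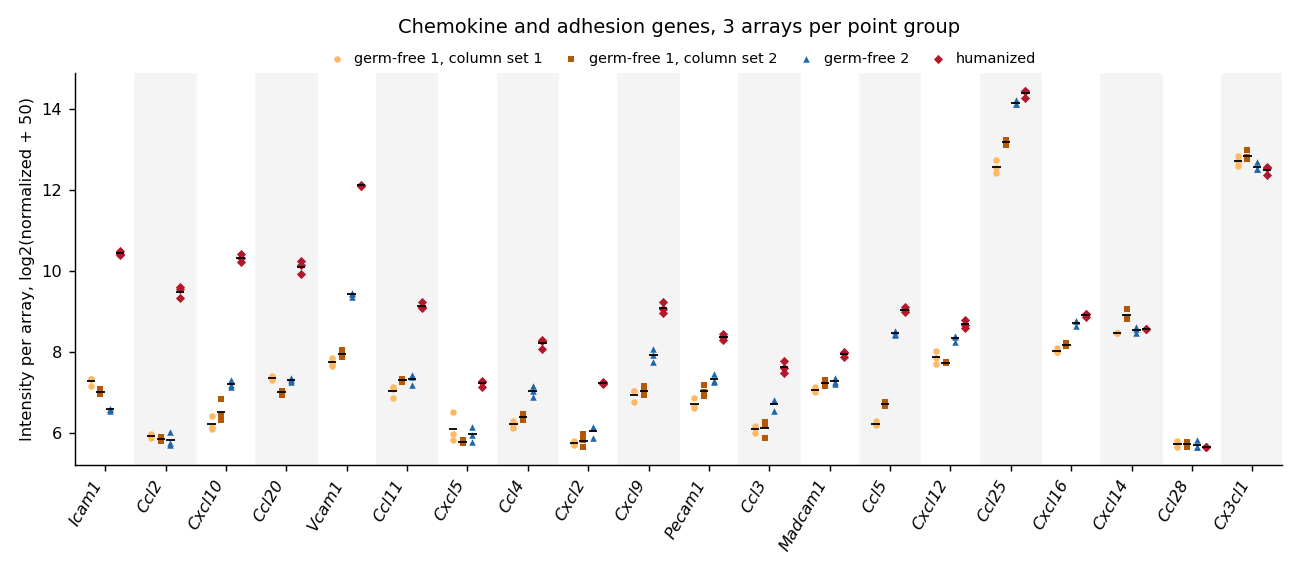
Intensity of the 20 tested leukocyte recruitment genes on each array, as log2 of normalized intensity plus 50, with 3 arrays in each column of points and a bar at their mean, ordered by the difference from germ-free 2. The humanized arrays (red) lie above all germ-free arrays from Icam1 through Ccl5, and the genes toward the right overlap or lie close together.

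By list medians, markers of macrophages and dendritic cells and of T and NK cells differed less than the recruitment list. Of 15 tested genes of macrophages and dendritic cells, 13 were higher against both germ-free samples and none lower, beside 24.1% and 28.7% of all genes. Their medians were 0.71 and 0.52, but none reached 2-fold against both (0). C1qb, a complement subunit made by tissue macrophages, lay at 10.18 against 8.68, 9.38 and 9.32. Cd68 and Csf1r went the other way against germ-free 1, at -1.28 and -3.56, and Csf1r was 0.68 above germ-free 2, which did not detect Cd68. The summed normalized intensity of the list was 9473 in the humanized sample, 12011 in germ-free 1 and 6085 in germ-free 2. Of 22 tested genes of T and NK cells, 14 were higher and 5 lower, beside 24.1% and 28.7% of all genes. The medians were 0.46 and 0.09, and 11 genes were undetected in all 3 samples. The summed intensity of the list was 7436, 1493 and 4971. For the recruitment list the sums were 39661, 16355 and 27164, so the sums do not show the smaller difference seen in the medians. The granule protease Gzma was 3.62 above germ-free 1 and 0.74 above germ-free 2, and Gzmb was at least 7.84-fold and 1.77-fold higher.

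Only 4 of 11 neutrophil genes with a probe passed the filter, and 3 of them were higher against both samples, beside 24.1% of all genes. The medians of these 4 genes were 1.195 against germ-free 1 and 1.188 against germ-free 2, the latter above that of the recruitment list. S100a9, a subunit of calprotectin, lay at 8.30 in the humanized sample and at 5.91, 6.19 and 6.17 in the germ-free sets and sample, at least 1.99-fold and at least 1.26-fold higher. Mmp9, a protease of neutrophils and macrophages, was above background everywhere, at 9.61 against 8.11, 7.92 and 8.34, which is 3.03-fold and 2.43-fold. Retnlg was 1.73-fold higher than germ-free 1 and at least 1.83-fold higher than germ-free 2. The other one, Camp, which encodes an antimicrobial peptide, was detected on every array of germ-free 1 and on none of the other samples, and its measured difference from germ-free 1 was -1.55. Among 11 tested genes of B and plasma cells only Jchain, which joins polymeric immunoglobulins, was 2-fold higher against both, beside 0.91% of all genes. It was detected on 2 humanized arrays and on no germ-free array, at 7.16 against 5.69, 5.67 and 5.80, with no fold at its bound. The part of any shift in leukocyte number in the chemokine differences was not tested.

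Promoters of the chemokine genes were read from the RefSeq table for GRCm38.p6, which gives 250 bases before and 50 after each start. A promoter was found for 17 genes of the recruitment list, and 5 of them (29.4%) held the NF-kB consensus on either strand, beside 1388 of 27025 promoters in all (5.14%). Of the 11 genes 2-fold higher against both samples, 5 had a promoter in the table, and 3 of those held a match: Ccl20, Cxcl2 and Cxcl10. Stretches are shown only for genes 2-fold higher against both samples whose promoter was in the table and held a match before the start. Capitals mark the NF-kB match, and the gene's own strand is printed. In Cxcl2 a further match overlaps the one shown, shifted by 1 base. A match describes the letters and not binding.
Ccl20 (chr1:83116666-83116715, + strand, match 80 to 71 bases before the start): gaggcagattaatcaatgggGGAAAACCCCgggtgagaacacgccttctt
Cxcl10 (chr5:92348963-92349012, - strand, 103 to 94 bases before): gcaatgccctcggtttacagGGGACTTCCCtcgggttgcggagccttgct
Cxcl10 (chr5:92349019-92349068, - strand, 159 to 150 bases before): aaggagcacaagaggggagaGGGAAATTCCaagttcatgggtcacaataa
Cxcl2 (chr5:90903782-90903831, + strand, 97 to 88 bases before): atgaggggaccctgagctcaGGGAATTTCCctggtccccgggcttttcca

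The wider list of NF-kB targets and cytokines moved less uniformly. Of 26 tested genes 15 were higher and 3 lower against both samples, beside 24.1% and 28.7% of all genes. The medians were 0.81 against germ-free 1 and 0.15 against germ-free 2. At 2-fold or more higher stood 5 genes, beside 0.91% of all genes. The 5 genes were Tnfaip2, Nos2, Il1b, Lcn2 and Nfkb2. Il1b, the cytokine interleukin 1 beta, lay at 9.05 against 7.15, 7.44 and 7.84, which is 3.37-fold and at least 2.13-fold. Nfkb2, which encodes the NF-kB subunit p100, was above background in all samples at 10.39 against 8.48, 8.72 and 9.34, which is 3.44-fold and 2.06-fold. Nos2, the inducible nitric oxide synthase, lay at 7.99 against 5.86, 5.82 and 6.67 and was undetected without microbes, at least 1.62-fold and at least 1.02-fold higher.

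Inhibitors of the pathway, which NF-kB itself switches on, were also higher against both samples. Nfkbia, which encodes the inhibitor I kappa B alpha, lay at 13.65 against 11.53, 11.09 and 13.03. Tnfaip3, which encodes the brake A20, lay at 11.62 against 9.78, 10.16 and 11.05. These were 0.62 and 0.56 above germ-free 2, under 2-fold. Nfkbie, a further inhibitor that was not on the list and was named after its value was seen, was 2.17-fold higher than germ-free 1, which detected it on 1 of 6 arrays, and under 2-fold against column set 1. Germ-free 2 did not detect it, and its bound allows no fold. Relb and Il18 were close to germ-free 2, with differences of 0.02 and 0.09, and 1.48 and 2.29 above germ-free 1. Il33, an alarmin, was 3.32 above germ-free 1, which detected it on 3 of 6 arrays, and -0.19 from germ-free 2. Duox2 and Duoxa2, the oxidase of the epithelium and its maturation factor, were undetected in all 3 samples.

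Receptors that signal through gp130 were also found among the 111 genes and were named after their values were seen. Il6st, gp130 itself, lay at 9.36 against 7.52, 7.48 and 8.27, 3.63-fold and 2.14-fold higher, and Osmr, its partner for oncostatin M, lay at 7.88 against 6.34 and 6.87 in germ-free 1 and 2, undetected there, at least 1.49-fold higher than germ-free 1 and with no fold at its bound against germ-free 2. Acute-phase genes stood beside them. Serpina3g, a serine protease inhibitor, lay at 9.45 against 6.86, 6.59 and 7.16, at least 4.42-fold and at least 2.80-fold higher. Hp and Lrg1, plasma proteins of the acute phase, lay at 7.30 and 7.55 and were detected on 2 humanized arrays each and on no germ-free array. Saa3, an acute-phase gene of the cytokine list, was not higher, at -0.06 and -0.34.

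Among the proteins of mucosal defence, 7 of 16 tested genes were higher and 4 lower against both samples, beside 24.1% and 28.7% of all genes. Of the 16, 4 were 2-fold or more higher, beside 0.91% of all genes: Dmbt1, S100a9, Nos2 and Lcn2. Dmbt1, a scavenger protein that binds bacteria in mucus, was the brightest of them. It lay at 14.02 ± 0.07 (SD, n = 3 arrays) in the humanized sample, at 10.12 and 11.93 in the sets of germ-free 1 and at 11.53 ± 0.08 (SD, n = 3 arrays) in germ-free 2. Every humanized array was above every germ-free array, by 7.95-fold and 5.61-fold. Lcn2, which binds the iron carriers of bacteria, lay at 7.58 against 6.23, 6.04 and 6.54 and was undetected in the germ-free samples.

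The lectins of the Reg family split the germ-free samples. Reg3g, which kills Gram-positive bacteria, lay at 10.61 in the humanized sample, at 7.59 and 7.67 in germ-free 1 and at 11.36 in germ-free 2. It was thus 2.98 above the former and below the latter, at -0.75. Reg3b behaved alike, at 12.37 against 9.94, 8.98 and 13.14. The median of the mucosal list was 1.80 against germ-free 1 and 0.22 against germ-free 2, and with percentile scaling the second was -0.01. Pigr, the transporter of IgA across the epithelium, lay at 14.67 against 10.33, 11.93 and 14.39, 0.28 above germ-free 2.

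Interferon genes did not share a direction. Of 37 tested genes 5 were 2-fold or more higher against both samples, beside 0.91% of all genes: Cxcl10, Cxcl9, Gbp2, Gbp5 and Iigp1. In all 8 of 37 were higher and 16 lower against both, beside 24.1% and 28.7% of all genes, with medians of -0.24 and -0.17. Gbp2, a GTPase that coats intracellular pathogens, lay at 10.32 ± 0.05 (SD, n = 3 arrays) in the humanized sample, at 7.49 and 7.57 in germ-free 1 and at 8.28 ± 0.06 (SD, n = 3 arrays) in germ-free 2, 6.91-fold and 4.12-fold higher without overlap. Gbp5 lay at 8.94 against 6.76, 6.83 and 7.15 and was undetected in the germ-free samples, at least 3.10-fold and at least 1.97-fold higher. Iigp1, another interferon-induced GTPase, was above background in all 3 samples and 1.72 and 1.08 higher.

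The antiviral genes of the list named here, which type I interferon raises, were lower, and the genes named as higher came from outside the list. Ifit1, a sensor of viral RNA, lay at 10.34 against 12.64, 12.56 and 11.03, with differences of -2.26 and -0.68. Isg15, a ubiquitin-like modifier, was at -1.08 and -0.57, and Irf7, the transcription factor that drives interferon genes, at -1.13 and -0.32. Outside the list, and named after its value was seen, Ifitm3, which blocks the entry of viruses, lay at 11.34 against 8.62, 9.07 and 9.75, 5.61-fold and 2.99-fold higher. Ly6e, another interferon-induced gene, was 2.21-fold and 2.06-fold higher, though under 2-fold against 1 column set of germ-free 1. Ch25h, which makes the antiviral sterol 25-hydroxycholesterol, was undetected in the germ-free samples and at least 3.65-fold and at least 2.31-fold higher. Values in the series matrix, which are not normalized between arrays, put 12 genes of the list higher and 7 lower against both samples, so the direction of the smaller differences rests on the scaling. The count at 2-fold or more was 5 under each scaling. Ifng, which encodes interferon gamma and was looked up after the others, lay at 8.37 in the humanized sample, 8.21 in germ-free 1 and 8.87 in germ-free 2, between the germ-free samples.

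Promoters of 31 interferon genes were in the RefSeq table. Of these 19 (61.3%) held the interferon response element (GAAA, any 2 bases, then GAAA) on either strand, beside 1079 of 27025 promoters (3.99%), and 10 (32.3%) held the gamma-activated site TTCNNNGAA, beside 2582 (9.55%). How these matches divided between genes that were higher and genes that were lower was not counted. Among the 4 promoters of the genes 2-fold higher against both samples, 3 held the response element, shown in capitals and read as its reverse complement in Gbp2 and Gbp5, and 1 (Gbp5) held TTCNNNGAA.
Cxcl10 (chr5:92349073-92349122, - strand, match 213 to 204 bases before the start): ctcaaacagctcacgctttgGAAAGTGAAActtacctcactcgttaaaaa
Gbp2 (chr3:142620584-142620633, + strand, 59 to 50 bases before): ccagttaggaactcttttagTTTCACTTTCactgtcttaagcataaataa
Gbp5 (chr3:142496749-142496798, + strand, 165 to 156 bases before): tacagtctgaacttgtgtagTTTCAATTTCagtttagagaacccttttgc

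Genes of antigen presentation by MHC class II were higher throughout their list. All 7 tested genes were higher against both samples, beside 24.1% of all genes, with medians of 1.28 and 0.97. Of the 7, H2-Aa and H2-Ab1, the chains of the I-A molecule, were 2-fold or more higher, beside 0.91% of all genes. H2-Aa, which stands just inside the threshold, lay at 13.89 against 12.53, 12.58 and 12.88, 2.53-fold and 2.02-fold higher. H2-Eb1, a chain of the I-E molecule family, was 1.65 and 0.97 higher. Cd74, the invariant chain, was 0.47 and 1.46 higher. With percentile scaling, or with quantiles of the 3 samples alone, 1 of the 7 was at 2-fold or more, and with series matrix values 4 were. Of 10 genes of MHC class I and the immunoproteasome 2 were higher and 2 lower against both samples, near the 24.1% and 28.7% of all genes, and B2m, the shared light chain, lay at 15.36 against 15.44, 15.40 and 15.23.

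Matrix, vessel and muscle genes formed another group of higher genes. All 16 tested genes of fibroblasts and matrix were higher against both samples, beside 24.1% of all genes, with medians of 1.37 and 0.77. Of 17 endothelial genes 16 were higher, with medians of 1.27 and 0.53, and of 18 smooth muscle genes 15 were, with medians of 0.87 and 0.67. No gene of these 3 lists was lower against both (0), beside 28.7% of all genes, and with percentile scaling 16, 15 and 13 were higher. The fibroblast, endothelial and smooth muscle genes above background numbered 16, 16 and 15 in the humanized sample. They numbered 7, 9 and 10 in germ-free 1, and 10, 11 and 10 in germ-free 2. A gene detected only in the humanized sample could hardly come out lower, so these counts are a description. Each list held 2 genes at 2-fold or more against both, beside 0.91% of all genes. With quantiles over the 3 samples alone there were 4 fibroblast, 3 endothelial and 2 smooth muscle genes, and with series matrix values 8, 7 and 7. The summed normalized intensity was 14917 for fibroblast genes in the humanized sample, against 5636 and 8141, then 14063 for endothelial genes against 7921 and 8659, and 31953 for smooth muscle genes against 12088 and 17778. How much muscle and connective tissue each piece of gut held was not recorded, and its part in these differences, and in those of the adhesion molecules made by vessels, was not tested.

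Chains of vessel basement membrane, named after their values were seen, were above background in all samples: Col4a1 lay at 11.16 against 9.24, 8.93 and 9.73, Col4a2 was 1.92 and 1.35 higher, and Col18a1 1.78 and 1.03 higher. Sparc, a matrix glycoprotein that binds collagen, was 2.60-fold and 2.40-fold higher, at 10.81 against 9.38, 9.49 and 9.55.

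Thbs1, the matrix protein thrombospondin 1, which restrains vessel growth and activates TGF beta, lay at 10.75 against 8.22, 7.85 and 8.66, 6.56-fold and 4.24-fold higher without overlap. Plat, tissue plasminogen activator, was 1.51 and 0.96 higher. Robo4, a guidance receptor that stabilizes endothelium, lay at 10.99 against 8.55, 7.94 and 9.83, and Rasip1, which endothelial cells need to form a lumen, at 9.82 against 7.65, 6.85 and 8.01. Cd93, a lectin-like receptor of endothelium, was 1.58 and 1.42 higher.

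Myh11, the heavy chain of smooth muscle myosin, lay at 12.61 ± 0.03 (SD, n = 3 arrays) in the humanized sample, at 7.80 and 7.07 in the sets of germ-free 1 and at 11.10 ± 0.28 (SD, n = 3 arrays) in germ-free 2. The germ-free samples were 3.67 apart, more than the difference between the humanized sample and germ-free 2, and the measured folds were 36.0 and 2.83, the former against a sample that detected the gene on 3 of 6 arrays. Myl9, the light chain that starts contraction, lay at 10.47 against 7.74, 7.34 and 9.25. Acta2, smooth muscle actin, went apart from them: it was below germ-free 1 at -0.70 and at least 1.32-fold above germ-free 2, which did not detect it, and only 1 humanized array detected it. Of 17 smooth muscle promoters that RefSeq lists, only that of Myl9 held the CArG box bound by serum response factor, beside 488 of 27025 (1.81%).

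**Figure D3:**
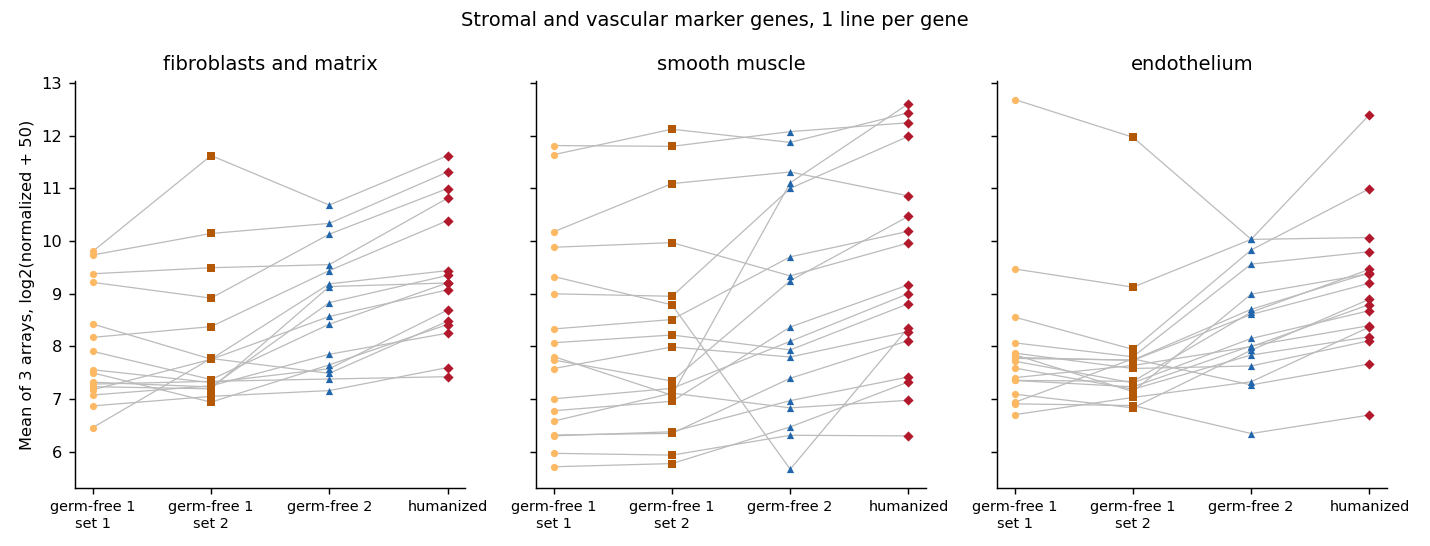
Levels of the tested fibroblast, smooth muscle and endothelial genes in the column sets of germ-free 1, in germ-free 2 and in the humanized sample, as means of 3 arrays of log2 normalized intensity plus 50, with 1 line per gene. Most lines end highest in the humanized sample, and several genes of smooth muscle step up between germ-free 1 and germ-free 2 already.

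Genes of dividing cells were slightly higher. Of 19 tested cell cycle genes 14 were higher and none lower against both samples (0), beside 24.1% and 28.7% of all genes. The medians were 0.50 and 0.58. Rrm2, which makes deoxynucleotides for DNA synthesis, was 2-fold higher against both, at 10.39 against 7.52, 7.28 and 8.58. Mki67, the proliferation marker, was 1.11 and 0.997 higher at 9.51 against 8.26, 8.54 and 8.51, just under 2-fold against germ-free 2. Heatr1 and Nolc1, which serve ribosome production in the nucleolus and were named after their values were seen, were 1.20 and 1.20 above germ-free 1 and 1.21 and 1.19 above germ-free 2. Heatr1 had 2 tested probes, and the other probe was not 2-fold higher against both samples. Rpl8, a ribosomal protein, met the rule but lay at 12.99 in column set 1 of germ-free 1, above the humanized 12.88, and at 7.88 in set 2, so its arrays overlapped.

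The genes that were lower included the bile acid hormone and gut peptides. Fgf15 lay at 7.12 ± 0.07 (SD, n = 3 arrays) in the humanized sample, at 12.83 and 11.54 in the sets of germ-free 1 and at 8.62 ± 0.02 (SD, n = 3 arrays) in germ-free 2. All humanized arrays were below all germ-free arrays, and the gene was detected on 1 of 3 humanized arrays. With the humanized level not above background on most arrays, the measured folds were 33.5 and 2.83, and the germ-free samples differed from each other by more than the humanized sample did from germ-free 2. Fabp6 was lower by at least 1.70-fold against germ-free 1 and at least 16.9-fold against germ-free 2, and against column set 2 of germ-free 1 it was 0.56 lower, under 2-fold. Slc10a2 was at least 3.01-fold below germ-free 2 and undetected in both other samples.

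The other genes of bile acid handling were mixed. Of 11 tested genes on the list 4 were lower against both samples (Fgf15, Fabp6, Slc51a and Nr0b2) and 2 higher (Abcc3 and Gata4). Of all genes 28.7% were lower and 24.1% higher. The medians of the list were -1.17 and 0.08. Nr1h4, which encodes FXR, lay at 11.61 against 13.89, 13.10 and 11.22, below germ-free 1 and above germ-free 2. Nr0b2, a repressor that FXR raises, was at -1.28 and -0.12. Slc51a and Slc51b, the exporters of bile acids into blood, were at -0.66 and -0.51 from germ-free 1 and at -0.40 and 0.10 from germ-free 2. None of the 10 promoters of the list (0) held the FXR motif, the inverted repeat GGTCA, any 1 base, then TGACC, which 13 of 27025 promoters (0.0481%) hold. Because the distal markers Fabp6 and Slc10a2 were undetected in the humanized sample, a difference in the stretch of gut sampled cannot be told apart from a difference in these genes.

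Among the peptide hormones Pyy and Nts were 2-fold or more lower against both samples. The stretch of gut sampled was not stated, and its part in the hormone differences was not tested. Pyy, made by L cells, lay at 9.98 ± 0.17 (SD, n = 3 arrays) in the humanized sample, at 13.52 and 13.48 in the sets of germ-free 1 and at 11.48 ± 0.15 (SD, n = 3 arrays) in germ-free 2, 11.4-fold and 2.81-fold lower without overlap. Nts, the hormone neurotensin, which the distal small intestine makes most of, lay at 11.15 against 13.11, 12.74 and 12.26, 3.42-fold and 2.16-fold lower. Gcg, which encodes GLP-1 and is made by the same L cells, lay at 8.81 against 10.60, 9.92 and 8.28, below germ-free 1 and 0.53 above germ-free 2. Other hormones differed by less than 2-fold: Cck by -0.62 and 0.41, Gip by -0.37 and 0.05, Sst by -0.42 and 0.12, Sct, which encodes secretin, by -0.56 and -0.44, and Ghrl, which encodes ghrelin, by 0.69 and 0.40. Of 19 tested enteroendocrine genes 7 were lower and 4 higher against both samples, beside 28.7% and 24.1% of all genes. The medians were -0.37 and -0.04, and the granule protein gene Chgb differed by -0.37 and 0.01.

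**Figure D4:**
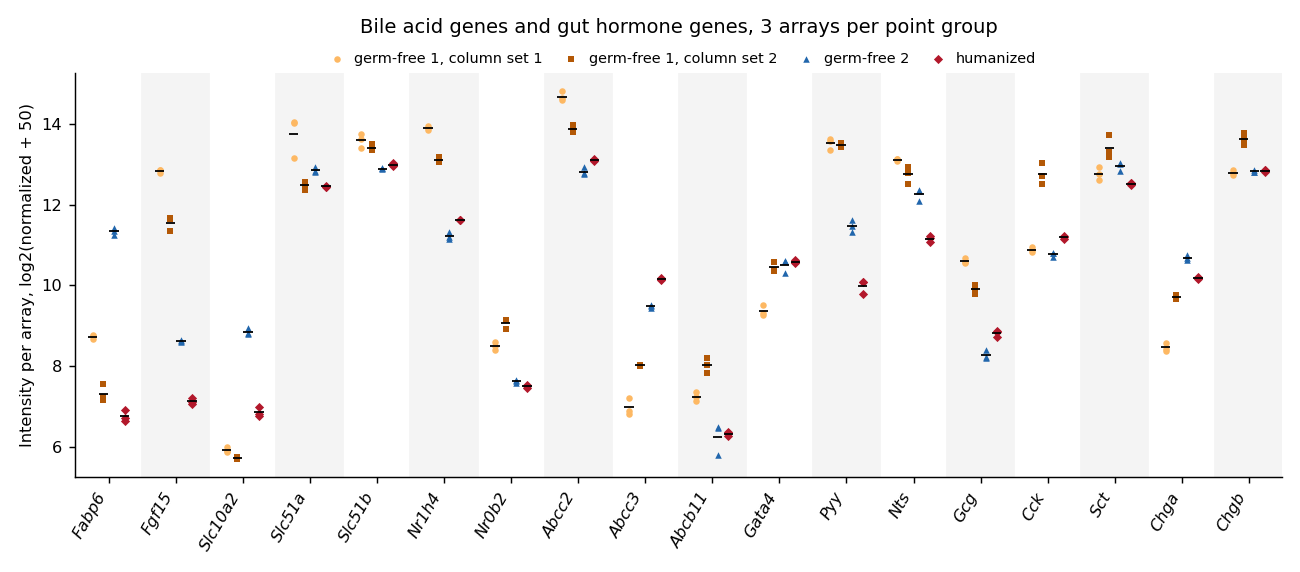
Intensity of bile acid genes, Gata4 and gut hormone genes on each array, as log2 of normalized intensity plus 50, with 3 arrays in each column of points and a bar at their mean. Fgf15, Pyy and Nts are lowest on the humanized arrays, while Fabp6 and Slc10a2 stand out in germ-free 2.

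The other lower genes named here belonged to no list of a common role. Bnip5 had the largest smaller difference, at 10.77 against 12.61, 12.77 and 12.38, 3.77-fold and 3.04-fold lower without overlap. Slc5a8, a carrier of short-chain fatty acids, lay at 9.67 against 12.05, 10.26 and 10.94 and was under 2-fold against column set 2. Efna1, the ephrin A1 ligand, was above background in all samples and lower by 2.17-fold and 2.19-fold, though under 2-fold against column set 1. Scd2, a desaturase of fatty acids, lay at 9.13 against 14.43, 12.14 and 10.43. Idh3g, a subunit of mitochondrial isocitrate dehydrogenase, was detected on 2 humanized arrays, its arrays overlapped those of the germ-free samples, and with the median over arrays its smaller difference changed sign to 0.18. Just outside the threshold stood Ypel2, at -1.85 and -0.99, and E2f3, a transcription factor of the cell cycle, was just inside at -1.05 and -1.01.

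Genes that mark the change from milk to solid food differed far more from germ-free 1 than from germ-free 2. Of 25 tested genes of suckling enterocytes, which take up milk proteins and digest them in lysosomes, 19 were 2-fold or more lower in the humanized sample than in germ-free 1, and 1 was lower by that much against germ-free 2, beside 8.16% and 0.418% of all genes. In all 13 of the 25 were lower against both samples and none higher (0), beside 28.7% and 24.1% of all genes. The medians were -2.42 and -0.16. Mamdc4, the endocytic protein endotubin, lay at 7.61 in the humanized sample, at 14.95 and 14.70 in germ-free 1 and at 7.81 in germ-free 2. The mature brush border mirrored this, with 13 of 24 genes 2-fold or more higher than germ-free 1 and none than germ-free 2 (0), beside 10.2% and 1.48% of all genes. Sis, sucrase-isomaltase, lay at 15.27 against 8.05, 10.02 and 15.03. Slc15a1, the peptide transporter, was at least 3.83-fold above germ-free 1 and 2.12-fold below germ-free 2, at 9.24 against 10.32.

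Enzymes of xenobiotic metabolism were likewise close to germ-free 2. Of 27 tested genes 21 were 2-fold or more higher than germ-free 1 and 3 than germ-free 2, beside 10.2% and 1.48% of all genes, with medians of 2.54 and 0.17. The 3 genes, Cyp1b1, Cyp2c55 and Gstm3, were 2-fold or more higher against both samples. Cyp2c55, a cytochrome P450 of the gut, lay at 12.61 against 8.61, 8.81 and 11.45, and Gstm3, a glutathione transferase, at 12.37 against 9.27, 8.20 and 11.21. With percentile scaling 1 gene of the list was at 2-fold or more, and with series matrix values 5 were. Cyp1b1, a target of the aryl hydrocarbon receptor, lay at 8.33 against 5.87, 5.79 and 7.07, undetected without microbes, whereas Cyp1a1, the receptor's best known target, was undetected in all 3 samples. The plot of list medians shows these lists far from 0 on the germ-free 1 side alone.

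**Figure D5:**
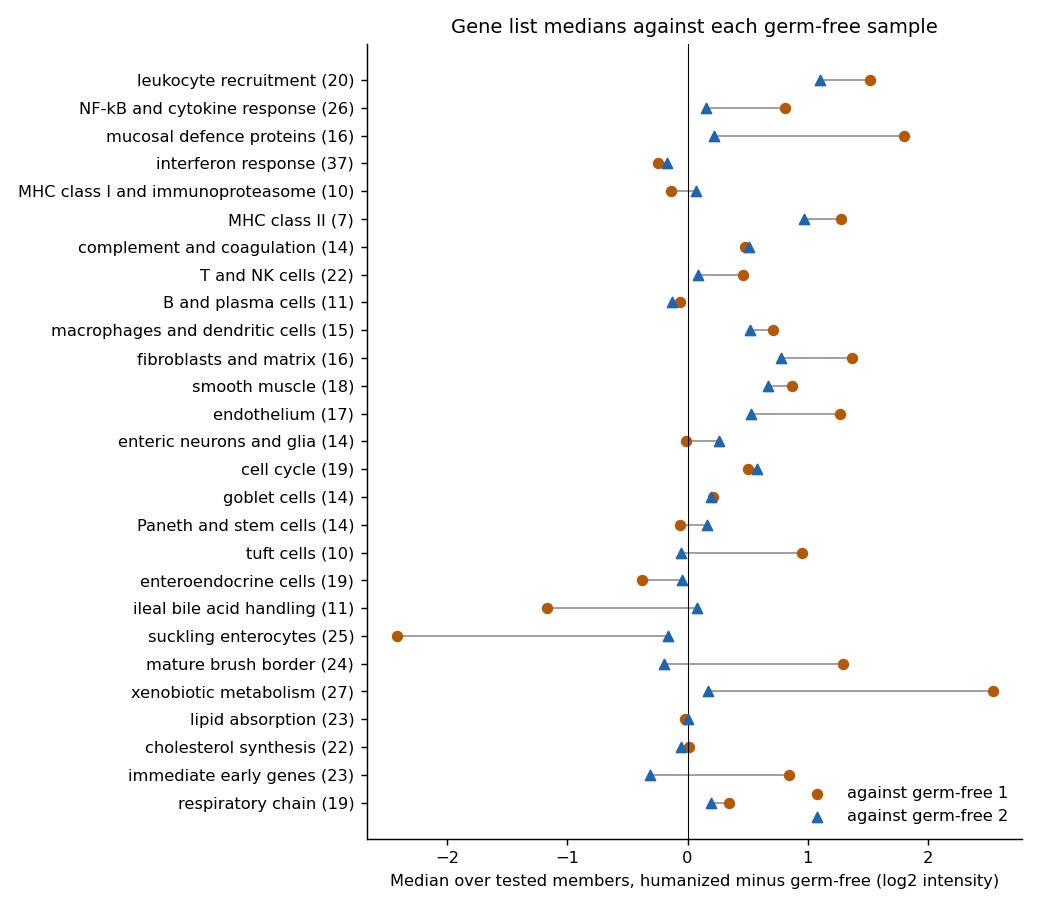
Median difference between the humanized sample and germ-free 1 (circles) or germ-free 2 (triangles) over the tested members of 27 gene lists, in log2 intensity, with the number of tested members in brackets. Among the lists shown, leukocyte recruitment and MHC class II lie furthest to the right against germ-free 2. Suckling enterocytes, brush border and xenobiotic metabolism depart from 0 mainly against germ-free 1. Not shown is the neutrophil list, with 4 tested genes and a median of 1.19 against germ-free 2.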

How the data were processed

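Ileal RNA of 6 samples was labelled with Cy5 and read on Phalanx Mouse OneArray arrays in 1 colour, per the labels' protocols. The deposited intensities are per array with background already subtracted, since some are below 0, and the software that made them was not stated. The deposited detection p-value per probe and array was used at 0.05, and the spot flags were not used. The authors' series matrix intensities followed the mean of the raw arrays in scale, with no centring, and served as an alternative.

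From these files, all 21 arrays were quantile-normalized, normalized values below 0 were set to 0, and log2 was taken after adding 50. Arrays were averaged within column sets and sets within samples. A probe was tested when detected on most arrays of at least 1 of the 6 samples, and a gene was read from its tested probe with the highest mean. A gene detected in 1 sample alone could thus be tested, and it could hardly come out lower there. The direction counts of all lists carry this limit. Of the 111 higher genes 7 had more than 1 tested probe, and for 2 of these another probe was also 2-fold higher. Of the 22 lower genes 1 had more than 1 tested probe, and no other probe of it was 2-fold lower (0). Of 26423 probes 22553 had 1 gene symbol, 237 several and 3633 none, and older symbols were updated through RefSeq. The fit used limma 3.58.1 in R 4.3.3 with Benjamini-Hochberg adjustment, and was tested on simulated data. Python 3.11.15, pandas 2.3.3 and matplotlib 3.10.9 were used for counts and plots. The number of arrays limits the precision.

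Members, gene lists and tests were chosen with earlier results of these data known. Genes were named where they had the 12 largest smaller differences in a direction, were among the leading 4 of a list, marked a cell type, stood next to the threshold or had been named in an earlier account, and others are said to have been named after their values were seen or illustrate a list. Of 12 arrays compared, no pair held identical values (0). Alternatives covered the offset, the scaling, the filter, the probe rule, the arrays, the column sets, the fold and each germ-free sample alone. Some genes are not reported here.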

Additional observations from a re-analysis of the deposited data

Results flagged for a closer look

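A further 942 tested probes carry no single gene symbol, and so entered no comparison above. Of these, 5 were 2-fold or more higher in the humanized sample than in both germ-free samples and above background in the humanized sample. None (0) was 2-fold or more lower against both and above background in both germ-free samples. Of all genes with 1 symbol, 0.91% were higher and 0.18% lower at 2-fold. Of those, 109 of the 111 and 19 of the 22 also met the demand on background. The 5 probes are listed because they hold signal outside the named genes. The largest smaller difference was that of a probe assigned to both Ccl12 and LOC100862578, at 3.32 and 2.75 against germ-free 1 and 2. A probe assigned to Amd1 and Amd2 differed by 1.19 and 1.20. The other 3 probes have no name in the tables used here.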

How the results depend on the processing

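The count of higher genes was 111, and it was 167 with an offset of 16, 41 over genes above background in all 3 samples, 251 with series matrix values, 377 at 1.5-fold and 28 at 3-fold. The count of lower genes was 22, and it was 7 with series matrix values, 98 at 1.5-fold and 1 at 3-fold. Leaving out 1 germ-free sample gave 181 to 1240 higher and 51 to 995 lower genes. With undetected levels at their bounds, an alternative chosen after seeing the data, 65 were higher and 18 lower. Against each column set separately, likewise chosen after seeing the data, 103 were higher and 16 lower. Fewer genes or samples enter some of these by construction, and the cause of the rest was not tested. Series matrix values shared 107 higher and 7 lower genes with the main setting. limma called no gene (0) in the main fit and 11 alternatives, with 24 to 239 genes at an unadjusted p under 0.05 and a smallest adjusted p of 0.763, reached with the column sets entered separately. Over named genes, 1818 values moved by no more than the SD of the germ-free pair for that gene, and 379 moved by more. For Idh3g, 1 value changed sign, to 0.18 with the median of arrays. Of list medians 743 stayed within the SD of the list's own medians against germ-free 1 and germ-free 2, and 157 did not. Where the germ-free samples lie far apart these spreads are wide, and they are not the spread between arrays. No paired analysis was possible because the labels give these samples no shared replicate numbers and set 1 sample against 2. Signal near background limits the dim genes most.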

Other observations

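Some genes stood above germ-free 2, the sample on the same array series, and below germ-free 1, and so met no rule of the report. They were named after their values were seen. Acot1, a thioesterase raised by PPAR alpha, lay at 9.25 in the humanized sample, 11.82 in germ-free 1 and 8.11 in germ-free 2. Cldn2, which forms a cation pore in tight junctions, lay at 11.19, 13.69 and 9.51. Each humanized level lay between the germ-free levels, so the direction depended on the germ-free sample chosen.

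Iron transport genes showed a similar split. Slc11a2, the importer of iron at the brush border, was 1.41 above germ-free 2 and at -0.49 from germ-free 1, and Slc40a1, the iron exporter ferroportin, was 1.07 above germ-free 2 and at -1.26 from germ-free 1. Cybrd1, a reductase of dietary iron, was higher against both, by 2.44 and 0.98, and Tfrc, the transferrin receptor, by 0.68 and 1.31. Over the 16 tested genes of iron and metal handling, 6 were higher and 2 lower against both samples, beside 24.1% and 28.7% of all genes. The medians were 0.01 and 0.26.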
